A study of Mus musculus with 6 samples.

Results

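Keratins were taken as every gene whose array symbol is Krt followed by a number and nothing else, which gave 44 keratin genes among the 18193 genes measured. Each gene was represented by the 1 probe set, of 55 for the family, with the highest mean log2 value over the 6 arrays. The arrays came from RNA of the left lung lobe of mouse embryos (strain C57/BL6) at E18.5, shortly before birth. They form 3 pairs of 1 wild type and 1 Smad1 CKO sample. In the CKO animals Smad1, which carries signals of bone morphogenetic proteins into the nucleus, had been deleted conditionally in the lung epithelium, while wild type animals are the only control. The promoter that drove the deletion and the deleted part of Smad1 are not stated in the sources used here, nor is whether a sample is 1 animal. P-values therefore measure only the spread between these 6 samples, which may be technical. The question for this family is how the keratins are seen in wild type lung, and how they differ with the loss of epithelial Smad1 within pairs.

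Keratins are the intermediate filament proteins of epithelial cells. A filament is built from pairs of 1 acidic type I keratin and 1 basic or neutral type II keratin, so that each epithelium makes matching members of both types. Simple epithelia such as the lining of the lung contain KRT8 and KRT18, with KRT7 and KRT19 in many of their cells. Basal cells of stratified and pseudostratified epithelia, including those of the trachea and large airways, contain KRT5 and KRT14, often with KRT15 and KRT17. Other members belong to cornifying skin, to mucosa and cornea, and to hair and nail. Filaments are anchored at desmosomes and hemidesmosomes through proteins of the plakin family. The mesothelium that covers the lung also contains simple keratins, so a lobe is not a pure measure of the epithelium.

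Of the 44 members 23 were type I and 21 type II keratins. In the RefSeq gene table of GRCm38.p6, 22 lay on chromosome 11 and 22 on chromosome 15. The type I genes were all on chromosome 11 apart from Krt18, which neighbours Krt8 in the type II cluster on chromosome 15. This table held 50 genes named by the same rule, and the 6 without a probe set of their own, Krt9, Krt39, Krt40, Krt74, Krt87 and Krt90, were not analysed here. Promoter sequences from RefSeq were matched by symbol for 31 of the 44 members. Those of 3 keratins bright on the arrays (Krt7, Krt8 and Krt18) are shown with that of Krt20, a simple keratin of the gut that was dim. Each is the 250 bases before the annotated start, 5′ to 3′ on the gene's strand. Capitals mark matches, on either strand, to any of 4 motifs, and no marked matches overlap in these windows. The TATA box, which helps to place the start of transcription, was searched as TATAAA. The motif bound by Sp1, a factor of many promoters, was searched as GGGCGG. The Smad box, a short motif bound by Smad proteins, was searched as CAGAC. The motif of AP-1, a factor active in many epithelial cells, was searched as TGANTCA. The windows are chr15:101412153-101412402 on the plus strand for Krt7 and chr15:102004343-102004592 on the minus strand for Krt8. They are chr15:102027966-102028215 on the plus strand for Krt18 and chr11:99438154-99438403 on the minus strand for Krt20.
Krt7: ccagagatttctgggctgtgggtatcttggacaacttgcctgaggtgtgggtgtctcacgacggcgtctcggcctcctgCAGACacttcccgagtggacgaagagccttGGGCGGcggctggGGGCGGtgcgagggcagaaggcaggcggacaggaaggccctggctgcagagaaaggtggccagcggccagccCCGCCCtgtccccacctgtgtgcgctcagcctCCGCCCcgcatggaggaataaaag
Krt8: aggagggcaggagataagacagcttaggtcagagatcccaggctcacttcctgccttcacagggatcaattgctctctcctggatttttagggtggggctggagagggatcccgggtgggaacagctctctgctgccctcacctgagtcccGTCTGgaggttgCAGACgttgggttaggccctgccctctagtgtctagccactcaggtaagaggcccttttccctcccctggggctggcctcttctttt
Krt18: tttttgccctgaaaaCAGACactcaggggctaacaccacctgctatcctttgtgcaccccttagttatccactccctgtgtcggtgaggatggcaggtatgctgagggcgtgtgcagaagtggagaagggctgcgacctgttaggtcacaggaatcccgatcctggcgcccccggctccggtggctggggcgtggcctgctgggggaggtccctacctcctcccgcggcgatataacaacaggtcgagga
Krt20: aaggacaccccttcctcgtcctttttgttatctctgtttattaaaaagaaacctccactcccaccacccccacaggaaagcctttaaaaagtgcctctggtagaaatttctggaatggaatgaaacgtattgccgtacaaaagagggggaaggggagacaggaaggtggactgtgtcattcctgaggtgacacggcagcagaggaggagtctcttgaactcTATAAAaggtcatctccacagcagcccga

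The Krt7 window held 4 Sp1 matches and 1 Smad box, the Krt8 window 2 Smad boxes and the Krt18 window 1. The exact string TATAAA was not found in these 3 windows, while Krt20 had it 29 to 24 bases before its start. Variants of the TATA box were not searched. Over the 32 start sites of the 31 keratins, 15 windows (46.9%) held the TATA box, against 12.4% of the 32851 windows of all genes in the table. The Sp1 motif was found in 2 of them (6.25%, against 32.7% of all windows), the other being Krt75 of the hair companion layer. The Smad box was found in 16 (50%, against 42.2%) and the AP-1 motif in 2 (6.25%, against 6.75%). By brightness, the TATA box was in 3 of 9 windows of keratins above the array median on all 3 wild type arrays and in 10 of 20 windows of those below it on all 3. These are matches of letters in one window and say nothing of binding.

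The arrays have to be described before the differences. Median intensity ran from 69.96 to 77.8. Smad1 CKO 3 stood apart. Its 18S ribosomal RNA control read 2887, where the other 5 arrays read 242.5 to 297.2, and its beta-actin control read 5820, where they read 18450 to 20900. The 1820 brightest genes by mean level had median log2 differences, CKO minus wild type, of -0.25, -0.0030 and -1.42 in pairs 1 to 3. For the 9096 dimmest genes the medians were 0.20, 0.027 and 0.31. Smad1 CKO 1 differed in sex-linked genes, with Xist at 10.95 (log2) where the others had 6.07 to 7.70, and Eif2s3y at 3.78 where they had 7.06 to 9.04. Smad1 itself ran from 9.53 to 10.09 in wild type lungs and was at 10.12, 10.62 and 9.05 in CKO lungs. The difference was 0.06 ± 0.51 (SD, n = 3 pairs, limma, adjusted p = 0.904), with 0.12, 0.53 and -0.48 in pairs 1 to 3. A lower level was thus not detected in RNA of the whole lobe. Its other 2 probe sets gave -0.28 and -0.18, and were also higher in CKO lungs in pairs 1 and 2 and lower in pair 3. After cyclic loess normalization between arrays the 3 probe sets gave 0.58 (limma, unadjusted p = 0.00919, adjusted p = 0.336), 0.088 and 0.31. Results are therefore given by pair, with values without pair 3 and after a further normalization between arrays (quantile or cyclic loess) where these matter. Levels are log2(intensity + 1), and differences are log2 CKO minus wild type. Probe sets differ in how brightly they report the same amount of RNA, so a level is placed against the array's median or its percentile and not against that of another keratin.

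In wild type lung 4 simple keratins were bright. Krt8, the type II keratin common to simple epithelia, was at 11.61, 11.65 and 11.71 in wild type lungs 1 to 3, at percentile 98.2 of all probe sets by its mean. Krt18, its type I partner, was at 11.12, 11.17 and 11.12 (percentile 97.2). Krt19, a type I keratin of ducts and airways, was at 11.28, 11.25 and 11.32 (percentile 97.5). Krt7, a type II keratin of glandular and lung epithelium, was at 10.97, 11.05 and 11.15 (percentile 97). The SD over the 3 wild type lungs was between 0.027 and 0.086 for these 4 genes. The fifth simple keratin, Krt20, was at 5.32, 5.43 and 5.34 (percentile 35.1), below the array median of 6.15 to 6.18 in each wild type lung.

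Another 4 keratins were clearly above the array median. Krt80, a type II keratin of several epithelia, was at 8.80, 8.57 and 7.82. Krt15, a type I keratin of basal cells, was at 8.14, 8.16 and 8.45 (percentile 77.4). Krt42 was at 8.24, 8.01 and 8.29, on a probe set whose suffix (x) marks probes that may also bind related transcripts, and its other probe set had a mean of 5.93, below the array medians. Krt10, a type I keratin of the upper epidermis, was at 7.73, 7.74 and 7.34 (percentile 69.8). In all 15 keratins lay above the array median on each wild type array, 3 on some of them and 26 on none. Those 26 hold Krt14 and Krt17 of basal cells, Krt4 and Krt13 of mucosa, Krt1 and Krt2 of epidermis and most keratins of hair. No detection call was used here, so a level below the median is not proof that the RNA was absent.

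Among basal keratins Krt5, the type II keratin that pairs with Krt14, was at 6.63, 6.53 and 6.85 in wild type lung (percentile 57.6). Krt14 was at 4.87, 4.92 and 5.00, and its other 2 probe sets had means of 4.70 and 4.43. Krt17, of basal cells and of injured epithelium, was at 4.83, 4.71 and 4.87. Trp63, the transcription factor that defines basal cells, was at 5.23, 5.24 and 5.51, also below the array medians. The defining genes of the lung epithelium were bright by contrast, with wild type means of 14.40 for Sftpc (surfactant protein C), 13.75 for Ager (alveolar type 1 cells), 13.58 for Scgb1a1 (club cells) and 11.98 for Cdh1 (E-cadherin).

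**Figure D1:**
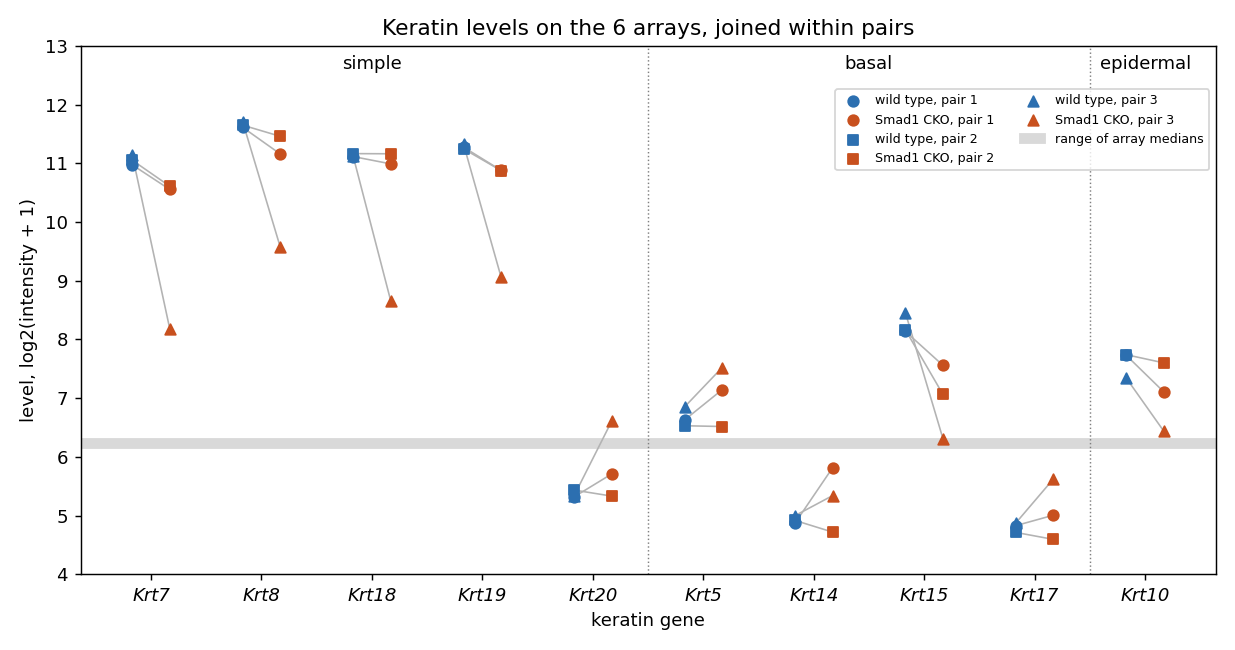
Level of each simple keratin, each basal keratin and Krt10 on the 6 arrays, as log2(intensity + 1), with the wild type (blue) and Smad1 CKO (orange) array of a pair joined by a line. Krt7, Krt8, Krt18 and Krt19 lie near 11 in wild type lungs and are lowest in Smad1 CKO 3, Krt15 is lower in each CKO lung than in any wild type lung, and the grey band is the range of array medians.

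No keratin passed the test for a genotype difference. With limma and Benjamini-Hochberg adjustment over 45037 probe sets, 0 of 44 had an adjusted p under 0.05 in either direction, as did 0 (0%) of the 18193 genes by their representative probe set. At an unadjusted p under 0.05, 2 keratins were lower in CKO lungs, against 9.96% of all genes, and 7 were higher, against 4.96%. The 2 lower ones were Krt15 and Krt10. The 7 higher ones were Krt12, Krt16, Krt24, Krt27, Krt35, Krt72 and Krt76, all but Krt72 below the median of each wild type array. Calls by this measure varied with brightness, as 12.5% of the 1820 brightest genes were lower and 0.385% higher. The share among dim genes alone is not given. Of the 44 members 6 were lower in all 3 pairs (29.3% of all genes were) and 18 were higher in all 3 (21%). Most keratins were dim, and of the 9096 dimmest genes 1019 were lower and 3367 higher in all 3 pairs. The median over all keratins was 0.27, with 0.29, 0.0023 and 0.49 in pairs 1 to 3, against -0.09 over all genes. For the dimmest genes the median was 0.21. In a single lobe, fewer cells of a type and less RNA per cell cannot be told apart, for keratins as for other markers of a cell type.

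The 4 bright simple keratins were lower in the CKO lung of every pair, by very different amounts. Krt7 was at 10.55, 10.61 and 8.18 in CKO lungs 1 to 3, a difference of -1.28 ± 1.46 (SD, n = 3 pairs), with a 95% interval of -2.58 to 0.024 (limma, adjusted p = 0.367). Krt8 was at 11.16, 11.46 and 9.58, a difference of -0.93 ± 1.05 with an interval of -1.91 to 0.061 (adjusted p = 0.367). Krt19 was at 10.88, 10.88 and 9.06, a difference of -1.01 ± 1.09 with an interval of -2.02 to 0.0004 (adjusted p = 0.367). For these 3 genes each CKO lung lay below every wild type lung, and most of the mean came from CKO lung 3. Krt18 was at 10.99, 11.16 and 8.66, a difference of -0.86 ± 1.39 with an interval of -2.10 to 0.38 (adjusted p = 0.384), and its groups overlapped. The pair differences of Krt18 were -0.12, -0.0027 and -2.46, so that CKO lung 2 matched its wild type partner.

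Bright genes as a whole also lay lower on the CKO arrays of pairs 1 and 3, but hardly on that of pair 2. Of the 1820 brightest genes, 49.2% were lower in all 3 pairs and 14.7% had CKO lungs entirely below the wild type lungs (6.05% of all genes had). The 4 keratins had a median difference of -0.41, -0.28 and -2.36 in pairs 1, 2 and 3, against -0.25, -0.0030 and -1.42 for those genes. Without pair 3 the mean differences were -0.43 for Krt7, -0.38 for Krt19, -0.32 for Krt8 and -0.064 for Krt18, where none reached an unadjusted p under 0.05 in limma. After cyclic loess normalization they were -0.72, -0.43, -0.33 and -0.29, with unadjusted p from 0.0508 to 0.302. The sign of Krt18 then differed between pairs, at 0.14, 0.0087 and -1.02. The part of the array's own shift in the difference of pair 3 was not tested. The other 2 probe sets of Krt8 gave -0.57 and -0.81 as deposited, lower in each pair, but -0.0009 and -0.26 after cyclic loess.

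The 4 bright simple keratins could also be set against each other within an array. The difference of Krt7 was more negative than that of Krt18 in each pair, by -0.30, -0.44 and -0.50, or -0.41 ± 0.11 (SD, n = 3 pairs). Of the 6 possible pairs of these genes, this was the only one with 1 sign in all 3 pairs apart from Krt7 against Krt19, at -0.024, -0.074 and -0.70. Krt8 against Krt18, the usual partners, gave -0.33, -0.19 and 0.33, which are not of 1 sign. These contrasts are given as a description and were not tested. Krt20, the dim simple keratin, was at 5.71, 5.33 and 6.60 in CKO lungs, a difference of 0.52 ± 0.69 (adjusted p = 0.38), and its groups overlapped.

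**Figure D2:**
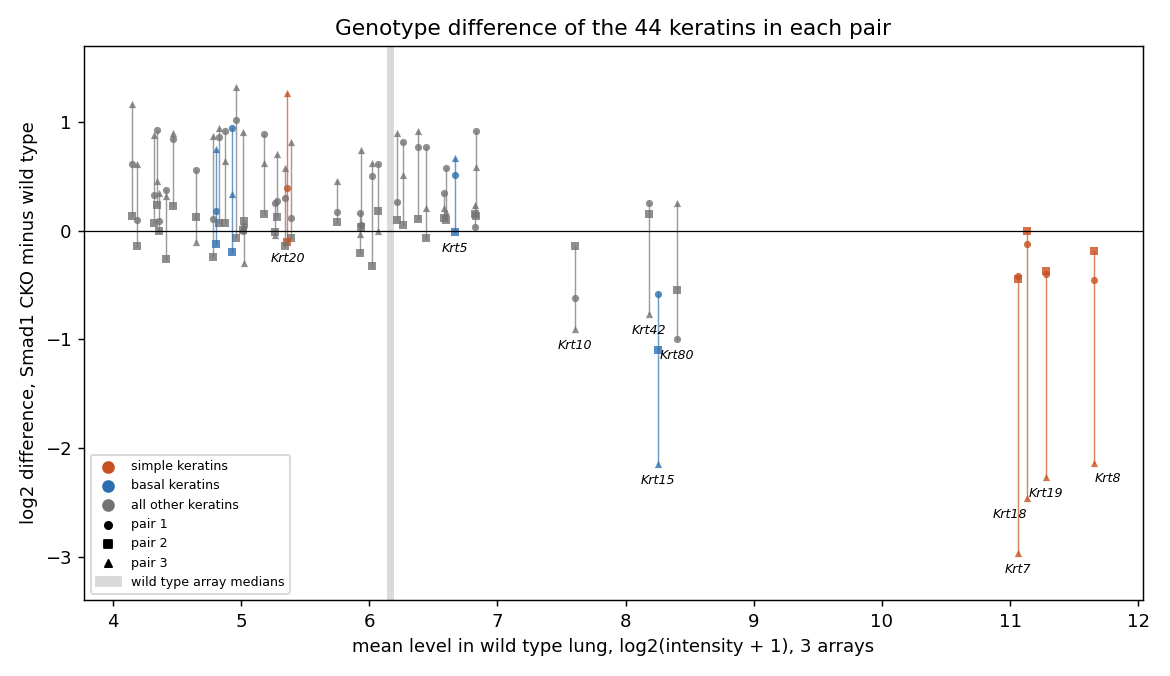
Log2 difference (Smad1 CKO minus wild type) of each of the 44 keratins in pairs 1 to 3, against its mean level in the 3 wild type lungs on the log2(intensity + 1) scale, with a vertical line joining the pairs of a gene. The bright simple keratins reach -2.13 to -2.97 in pair 3. Most dim keratins lie above 0 in pairs 1 and 3, while in pair 2 they lie on both sides of 0. Krt15 is the basal keratin that lies below 0 in each pair.

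The basal keratins did not differ in 1 direction. Krt15 was at 7.56, 7.06 and 6.31 in CKO lungs, with pair differences of -0.58, -1.10 and -2.15. Its mean difference was -1.27 ± 0.80 (SD, n = 3 pairs), a 2.42-fold lower intensity, with an interval of -2.08 to -0.47 (limma, unadjusted p = 0.00828, adjusted p = 0.367). Each CKO lung lay below every wild type lung, and in CKO lung 3 the level was close to that array's median of 6.30. This was the smallest p of the family. Its unadjusted p stayed under 0.05 in all 12 alternative fits, with differences from -1.62 to -0.84, while its adjusted p ran from 0.183 to 0.917. Without pair 3 the difference was -0.84 (unadjusted p = 0.00526), and after cyclic loess normalization it was -0.99 (unadjusted p = 0.00963), with -0.30, -1.06 and -1.63 in the 3 pairs. Its lower value was thus seen with and without the outlying array, but did not pass the adjusted threshold.

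Krt5 was at 7.14, 6.52 and 7.52 in CKO lungs, a difference of 0.39 ± 0.36 (adjusted p = 0.376), with 0.52, -0.013 and 0.67 in the pairs. Its groups overlapped through pair 2, where both lungs had nearly the same level. The difference of Krt15 minus that of Krt5 was -1.09, -1.09 and -2.82 in the 3 pairs. Krt14 was at 5.81, 4.72 and 5.34 in CKO lungs, a difference of 0.36 ± 0.57 (adjusted p = 0.439). Its 2 dimmer probe sets gave 0.68 and 0.72 and were higher in each pair. Krt17 was at 5.01, 4.59 and 5.62, a difference of 0.27 ± 0.44 (adjusted p = 0.501), and its other probe set gave 0.26. The median of the 4 basal keratins was 0.32, with 0.35, -0.16 and 0.51 in the pairs. That median describes probe sets near or below the array medians, since only Krt15 and Krt5 lay above them, and with those 2 alone it was -0.44.

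**Figure D3:**
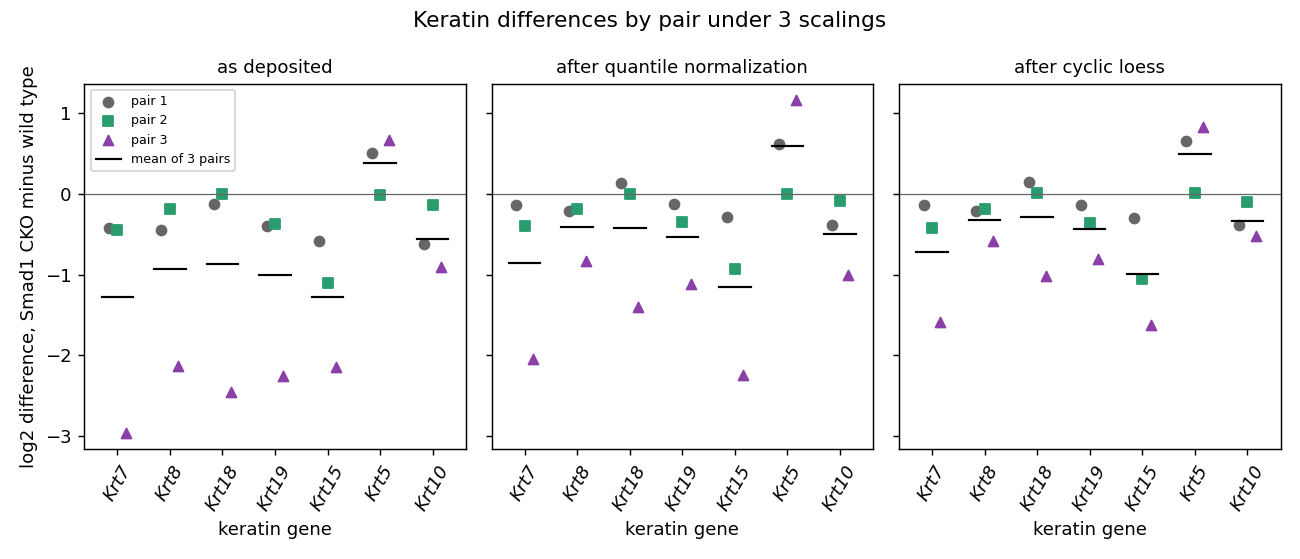
Log2 difference (Smad1 CKO minus wild type) by pair of 7 keratins, on the deposited values, after quantile and after cyclic loess normalization between arrays, with a bar for the mean of the 3 pairs. Pair 3 of the simple keratins moves towards 0 after either normalization. Krt15 also moves towards 0, in pair 1 after either normalization and in pair 3 after cyclic loess. Its mean is -1.16 after quantile and -0.99 after cyclic loess, where that of Krt7 is -0.86 and -0.72.

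The other keratins above the array medians gave smaller or mixed values. Krt10 was at 7.10, 7.60 and 6.43 in CKO lungs, a difference of -0.56 ± 0.39 (unadjusted p = 0.048, adjusted p = 0.367), lower in each pair, with groups that overlapped. Krt80 was at 7.81, 8.03 and 8.07, with pair differences of -0.99, -0.55 and 0.25. As deposited, the 3 CKO levels of Krt80 lay close together, while wild type lung 3, at 7.82, lay below the other 2. Without pair 3 the difference of Krt80 was -0.77 (limma, unadjusted p = 0.00743). Krt80 and Krt15 were the 2 keratins lower by that measure, against 6.19% of all genes. Over all pairs the difference of Krt80 was -0.43 ± 0.63 (adjusted p = 0.404). After quantile and cyclic loess normalization it was -0.063 and -0.060, with pair 3 at 0.93 and 0.99. Krt42 was at 8.49, 8.17 and 7.52, a difference of -0.12 ± 0.56, and its dimmer probe set gave 0.25, so its direction is not settled. Krt83, a hair keratin in type II, was at 6.95, 6.75 and 6.80 in wild type and at 7.86, 6.88 and 7.38 in CKO lungs, a difference of 0.54 ± 0.39 (adjusted p = 0.367). The remaining 5 keratins above the median on each wild type array had differences from 0.14 to 0.46, and the groups of each overlapped. Krt81, a hair keratin, was at 6.77, 6.42 and 7.28 in wild type and at 6.80, 6.57 and 7.52 in CKO lungs. Krt78 was at 6.59, 6.45 and 6.74 in wild type and at 7.17, 6.55 and 6.92 in CKO lungs. Krt88 was at 6.48, 6.44 and 6.84 in wild type and at 6.83, 6.56 and 7.04 in CKO lungs. These 3 were higher in each pair, by small amounts. Krt32, a type I hair keratin, was at 6.32, 6.24 and 6.77 in wild type and at 7.09, 6.18 and 6.98 in CKO lungs, with pair 2 below 0. Krt71, of the inner root sheath of hair, was at 6.31, 6.16 and 6.33 in wild type and at 7.12, 6.21 and 6.84 in CKO lungs.

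Most keratins of stratified, cornifying and hair epithelia lay below the array medians, and their differences were mostly above 0 without passing the adjusted threshold. The exceptions above the medians were Krt10, Krt83, Krt81, Krt78, Krt32 and Krt71. The 6 mucosal and corneal keratins had a median of 0.55, with 0.73, 0.11 and 0.63 in the pairs. Of these keratins 5 were higher in each pair (21% of all genes and 3367 of the 9096 dimmest genes were). Krt16, a type I keratin of wounded epidermis, had the smallest p among them, with 4.47, 4.33 and 4.61 in wild type and 5.31, 4.56 and 5.51 in CKO lungs. Its difference was 0.66 ± 0.37 (unadjusted p = 0.0251, adjusted p = 0.367), and its groups overlapped by a narrow margin. Krt76, of the oral mucosa, was at 5.17, 5.14 and 5.23 in wild type and at 6.05, 5.30 and 5.86 in CKO lungs (0.56 ± 0.37), without overlap. Krt12, a keratin of the cornea, was at 4.11, 3.98 and 4.37 in wild type and at 4.72, 4.11 and 5.53 in CKO lungs. It differed by 0.64 ± 0.52 with overlap, and by 0.24 on its other probe set. Krt13, of mucosa, was at 4.88, 4.87 and 4.87 in wild type and at 5.80, 4.95 and 5.50 in CKO lungs. Its groups did not overlap either (0.54 ± 0.43), but its 2 other probe sets gave 0.52 and -0.14.

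Among the 10 hair and nail keratins the median was 0.25, or 0.063 in pair 2 and 0.085 without pair 3. Of these 5 were higher and 0 lower in all pairs (21% and 29.3% of all genes were). Among the 9096 dimmest genes 3367 were higher and 1019 lower in all pairs. Krt35, of the hair cortex, was at 0.54 ± 0.35. Krt35 was between 4.27 and 4.47 in wild type lungs and no lower than 4.53 in CKO lungs. The 8 keratins of the hair root sheath had a median of 0.42, or 0.19 without pair 3. Krt72 was at 6.15, 6.17 and 6.82 in wild type and at 6.92, 6.28 and 7.74 in CKO lungs, a difference of 0.60 ± 0.43 with groups that overlapped. Krt27 differed by 0.76 ± 0.73. Krt27 was at 5.07, 4.65 and 5.16 in wild type and at 6.09, 4.59 and 6.49 in CKO lungs, so that it overlapped through pair 2. The 5 keratins of cornifying epidermis had a median of 0.19, from -0.56 for Krt10 to 0.62 for Krt24. Krt24 was at 4.87, 4.64 and 4.98 in wild type and at 5.73, 4.71 and 5.92 in CKO lungs, which overlapped through pair 2. Of the 44 members, 3 (Krt13, Krt35 and Krt76) had CKO lungs entirely above the wild type lungs, against 4.25% of all genes.

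These higher values were seen where the dim probe sets of the array also lay higher. The 26 keratins below the median of each wild type array had a median of 0.31, 0.0008 and 0.63 in pairs 1 to 3, against 0.20, 0.027 and 0.31 for the 9096 dimmest genes. The median was close to 0 in pair 2. Of the 26 keratins 10 were higher in all 3 pairs, as were 3367 of the 9096 dimmest genes. Without pair 3, 2 keratins were higher at an unadjusted p under 0.05 (Krt16 and Krt35, 3.53% of all genes), and without pair 1 there were 0. After cyclic loess normalization there was 1 lower keratin (Krt15, against 6.25% of all genes) and there were 5 higher ones (Krt5, Krt12, Krt16, Krt72 and Krt83, against 8.82% of all genes). The median of all genes shifted from -0.09 to 0.049 with that normalization. Whether the shift of dim probe sets accounts for these values was not tested.

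Genes that work with keratins were described in the same fit, in which 0 of the genes in these lists passed the adjusted threshold. Their counts at an unadjusted p under 0.05 stand against 9.96% lower and 4.96% higher of all genes, or 6.25% and 8.82% after cyclic loess. Of 12 desmosome genes 1 was lower and 0 higher, with a median of 0.19. After cyclic loess 0 were lower and 2 higher (Dsg2, a desmosomal cadherin, at 0.93, and Pkp3, plakophilin 3, at 0.50). The lower one, Perp, a desmosome protein of stratified epithelia, was at -0.65 ± 0.49 as deposited but at -0.19 after cyclic loess (unadjusted p = 0.254). Of 11 plakins and keratin-associated genes 2 were lower and 0 higher, with a median of -0.24 that turned to 0.11 after cyclic loess. Dst (dystonin), which links keratin filaments to hemidesmosomes of basal cells and has other forms in muscle and nerve, was at 8.14 to 8.89 in wild type lungs. It differed by -1.47, -0.65 and -2.40 in the 3 pairs, a mean of -1.51 ± 0.87 (limma, unadjusted p = 0.00524, adjusted p = 0.367), and by -1.18 after cyclic loess. Plec (plectin) was at -0.60 ± 0.46 on the deposited values and at -0.057 after cyclic loess. Of 13 other intermediate filament genes 1 was lower (Synm, synemin, -0.74 ± 0.58) and 1 higher (Nefh, a neurofilament, 1.03 ± 0.94), with a median of 0.024. After cyclic loess 0 were lower and 2 higher, and Synm was at -0.40. In all 3 pairs 3 of the 13 were lower and 1 higher (29.3% and 21% of all genes were). Vim (vimentin), at percentile 99.6, differed by -0.26, -0.31 and -2.31 in the pairs, where the 4 bright simple keratins had medians of -0.41, -0.28 and -2.36. Its mean was -0.96 ± 1.17, or -0.28 after cyclic loess.

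Other genes of basal and cornifying cells lay in both directions. Of 11 basal cell genes other than keratins 0 were lower and 2 higher at an unadjusted p under 0.05 (9.96% and 4.96% of all genes were), with a median of 0.21. After cyclic loess 0 were lower and 4 higher (6.25% and 8.82% of all genes were). Cdh3 (P-cadherin) was higher in each pair at 0.95, 0.74 and 0.61, a mean of 0.77 ± 0.17 (limma, unadjusted p = 0.00719, adjusted p = 0.367), and at 0.86 after cyclic loess. Ngfr (the p75 nerve growth factor receptor) was at 0.55 ± 0.25 from a wild type mean of 5.59, below the array medians. Itga6 (integrin alpha 6, of hemidesmosomes) was bright and lower in each pair at -0.39, -0.19 and -1.48, but at -0.068 after cyclic loess. Snai2 was also lower in each pair as deposited, at -0.048, -0.025 and -0.91, but at 0.27 after cyclic loess. Of 12 genes of the cornified envelope 4 were higher (Sprr1a, Sprr1b, Cnfn and Tgm3) and 1 lower (Tgm1) as deposited, at an unadjusted p under 0.05. Their median was 0.49, or 0.33 without pair 3. After cyclic loess 5 of them were higher and 1 lower. Sprr1b was at 1.14 ± 0.85 and Sprr1a at 0.68 ± 0.37, both below the array medians in wild type lung. Tgm1 (transglutaminase 1) was lower in each pair without overlap, at -0.70 ± 0.51, and at -0.55 after cyclic loess. Summed intensity of 7 skin, oesophagus and hair follicle markers was 468.3 to 534 in wild type and 482 to 606 in CKO lungs. Their median difference was 0.10, with 4 higher and 1 lower in all pairs (21% and 29.3% of all genes were). The lower one was Tchh (trichohyalin), at -1.44 ± 0.91.

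The simple keratins can be set beside other markers of the cells that make them. The 17 epithelial genes other than keratins had a median of 0.049 in pair 1, 0.27 in pair 2 and -0.997 in the remaining pair, and 0.21 without pair 3, where the 4 bright simple keratins had -0.35. On the deposited values 0 of the 17 were higher at an unadjusted p under 0.05 and 1 was lower (Ocln, occludin). After cyclic loess normalization the medians were 0.36 and -0.38, and 7 of the 17 were higher (8.82% of all genes were) while 0 were lower. Cldn4 (claudin 4) was at 0.50 ± 0.28 as deposited and at 0.86 after cyclic loess. The difference between the 2 lists was not tested. The 8 measured markers that define alveolar and airway cells were lower in each pair (29.3% of all genes and 49.2% of the 1820 brightest were), with a median of -0.39, -0.26 and -2.19. After cyclic loess the medians were -0.29, -0.30 and -0.14, and 4 of the 8 (Sftpc, Hopx, Scgb1a1 and Foxj1) no longer had 1 sign. The other 4 stayed lower in each pair, with Aqp5 at -2.64, Abca3 at -1.28, Sftpb at -0.89 and Ager at -0.24. The summed intensity of the 8 ran from 66920 to 80740 in wild type and from 14640 to 60520 in CKO lungs.

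Of the 7 mesothelial markers 4 were lower in each pair and 0 higher (29.3% and 21% of all genes were), with a median of -0.40, -0.26 and -0.16. Msln (mesothelin), the brightest of them, was at -1.78 ± 0.38 without overlap and at -1.22 after cyclic loess. Upk3b was at -0.69 ± 0.63, or -0.24 after cyclic loess, and Wt1, which defines mesothelium, was at 0.04 ± 0.15. Their summed intensity ran from 3025 to 4506 in wild type and from 1139 to 2162 in CKO lungs, without overlap, and Msln is a large part of that sum. Their part in the keratin differences was not tested. The 7 endothelial markers, of cells that lack keratins, were lower in each pair, with medians of -0.72, -0.67 and -1.48. Their median was -0.96 over all pairs, -0.65 without pair 3 and -0.42 after cyclic loess, where Kdr and Cldn5 no longer had 1 sign. The 9 mesenchymal and muscle markers had a median of -0.41, 0.12 and -1.61 in the pairs, and the 7 blood and immune markers one of 0.27, 0.16 and -0.39.

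**Figure D4:**
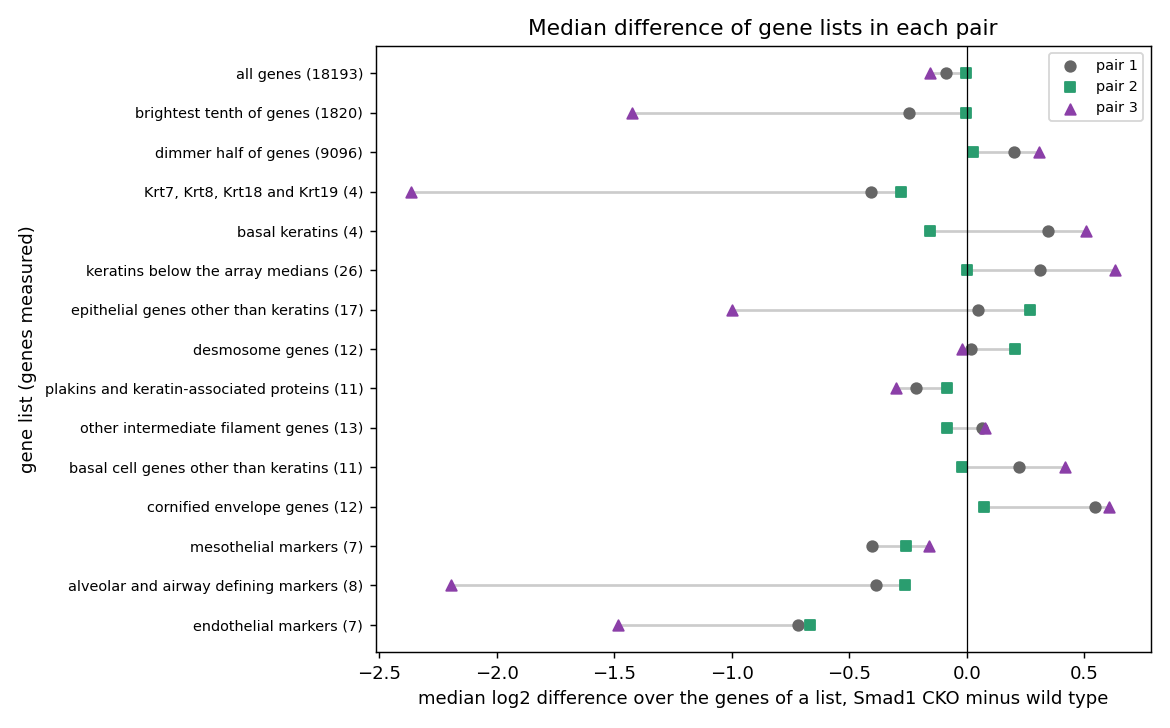
Median log2 difference (Smad1 CKO minus wild type) over the genes of each list in pairs 1, 2 and 3, with the number of genes measured. Krt7, Krt8, Krt18 and Krt19 lie below 0 in each pair and at -2.36 in pair 3, the epithelial genes other than keratins lie above 0 in pairs 1 and 2, and dim keratins lie near 0 in pair 2.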

How the data were processed

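Each deposited array table gives a linear intensity per probe set, and RMA is named in the submitters' processing notes without version or settings. They were turned into log2(value + 1). The 64 control probe sets were left out, and 34945 of the remaining 45037 had 1 gene symbol in the platform annotation, 932 several and 9160 none. All 44 keratin symbols matched the RefSeq table by gene identifier. The two-sided genotype test came from limma 3.58.1 (R 4.3.3, lmFit then eBayes), where pair was a fixed term. Adjustment followed Benjamini-Hochberg across the 45037 probe sets, with a threshold of 0.05. The pairing comes from the design text and the array names. Deviations from group means correlated at 0.258, 0.604 and 0.598 within pairs and at most at 0.215 between them. With so few arrays per group these deviations depend on each other, so the correlations are a weak check of the pairing. The smallest distance between 2 arrays was 0.227 (root mean square, log2), so none was a copy. The number of arrays and the outlying Smad1 CKO 3 both limit the precision.

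The members, lists and tests were chosen with earlier results of these data known. By rule, levels are given for simple and basal keratins and for other keratins above the array median on all wild type arrays or with an unadjusted p under 0.05 and 1 sign in all pairs. Levels of Krt13 and Krt27 were added after their values were seen. Of every other list, the 4 genes ranked first by p were open to naming. Tgm3, Dsg2, Pkp3, Snai2, Wt1, Hopx, Foxj1, Kdr and Cldn5 were named after their values were seen, and Trp63, Sftpc, Ager, Scgb1a1 and Cdh1 serve as cell type checks. The fit was tested on simulated data. Alternatives were a pseudocount of 16, quantile and cyclic loess normalization, dim probe sets left out, no replicate block, an intensity trend, the mean of a gene's probe sets, and each pair, Smad1 CKO 1 or Smad1 CKO 3 left out.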

Additional observations from a re-analysis of the deposited data

How the results depend on the processing

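With 12 alternatives, 0 keratins passed the adjusted threshold in any fit. The median of simple keratins kept its sign in all of them, from -1.29 to -0.32, and that of all keratins stayed between 0.052 and 0.44. The median of basal keratins was -0.44 with dim probe sets left out. At an unadjusted p under 0.05 in limma, lower keratins numbered 1 after quantile normalization (4.96% of all genes were) and 1 after cyclic loess (6.25%). They numbered 4 with dim probe sets left out, 4 with the mean of all probe sets, and 1 to 5 with arrays or pairs left out. Higher keratins numbered 2 with a pseudocount of 16, 3 after quantile normalization (5.11% of all genes were) and 0 with dim probe sets left out. With arrays or pairs left out they numbered 0 to 10. With no replicate block there was 1 lower and 1 higher. Counts without a share over all genes beside them describe the fits and are not read as a result about keratins. Krt42 turned its sign, to 0.16 after quantile, 0.24 after cyclic loess and 0.068 with the mean of its probe sets. It ran from -0.30 to 0.21 with pairs left out, and was 0.15 without Smad1 CKO 3 and -0.33 at the lowest. Over the alternatives that held them, Krt81 and Krt17 likewise turned sign, from -0.14 to 0.33 for Krt81 and from -0.0053 to 0.46 for Krt17. The cause was not tested.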

Other observations

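Of the keratins whose symbol carries a letter, Krt6b, a type II keratin of stressed and wounded epidermis, had log2 levels of 4.86, 4.89 and 5.31 in wild type and of 4.85, 4.70 and 8.07 in CKO lungs. The high value was in Smad1 CKO 3, the array that stood apart, and the other 2 CKO lungs lay below their partners. Krt6a was at 6.61, 6.55 and 6.62 in wild type and at 6.57, 6.56 and 6.35 in CKO lungs, so it did not share that value. These genes were looked at after the data were seen.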
